A study of Mus musculus with 8 samples.

Results

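The lysyl oxidases are a family of 5 genes, Lox and Loxl1 to Loxl4, and 4 of them could be followed in sorted mouse hepatic stellate cells. A gene was taken as measured where the platform's annotation gives a probe set to that symbol and no other, and of several such probe sets the brightest on average was kept. Lox, Loxl1 and Loxl3 had 1 such probe set each and Loxl4 had 2. The probe set that lists Loxl2 also carries another symbol, so Loxl2 is not analysed here. The 4 measured members are part of 19938 genes tested. The cells came from male Balb/c mice and were obtained by density centrifugation followed by fluorescence sorting on retinoid autofluorescence, a gate that keeps cells holding vitamin A. The quiescent group (4 arrays) is from normal mice. The reverted group (4 arrays) is from mice given 4 injections of the liver toxin carbon tetrachloride (CCl4), 0.5 µl per g body weight at 2 per week, and then left for 45 days. The comparison asks what differs from normal mice after that rest. The labels state an age of 18 weeks for both groups in one place and of 16 weeks for the CCl4 group in another. No group was given injections without CCl4. Past CCl4, the injections themselves and any difference in age thus cannot be told apart. They do not say whether an array holds cells of 1 mouse or of several, so that a p-value reflects the spread among these 8 preparations alone, which may be technical.

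Lysyl oxidases are secreted, copper-dependent amine oxidases. They turn lysine side chains of collagen and elastin into reactive aldehydes, which then condense into covalent cross-links that stiffen the matrix and make it hard to digest. Lox and Loxl1 are made as proenzymes with a propeptide that is cut off outside the cell, while Loxl2, Loxl3 and Loxl4 carry scavenger receptor cysteine-rich domains instead. In injured liver, stellate cells that turn into myofibroblasts are a main source of fibrillar collagen, and cross-linking of that collagen is a known obstacle to the regression of fibrosis.

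All values are log2 expression values, on which a difference of 1 is a doubling. Array medians ran from 7.66 to 7.74. On the first principal component (35.3% of the variance) the 4 reverted arrays fell on one side, and quiescent array 4, at -0.21, was nearest to them. On the second (17.9%), quiescent array 3 (-11.5) and reverted array 1 (-12.3) stood away from the other 6 arrays (0.25 to 6.78). Of 13 stellate markers measured, 12, among them the retinol esterifying enzyme gene Lrat and the intermediate filament gene Des, lay above the 96th percentile of gene levels. Gfap, a glial filament gene and marker of quiescent stellate cells, was the other one, at 62.3, and it fell (log2 change -0.49, limma adjusted p = 0.0182). The mean of each of the 13 was lower in the reverted group, with a median log2 change of -0.03. Over all 19938 genes, 9253 had a higher mean in that group. The mean level of the 13 markers ran from 13.29 to 13.35 in quiescent and from 13.20 to 13.27 in reverted arrays.

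Lox, the founding enzyme of the family, was the member that rose. Its log2 level was 6.44, 6.47, 6.28 and 6.73 in quiescent arrays 1 to 4 and 7.60, 7.24, 7.66 and 7.62 in reverted arrays 1 to 4. Each reverted array lay above each quiescent array, with quiescent array 4 and reverted array 2 nearest to each other. The means were 6.48 ± 0.19 (SD, n = 4) and 7.53 ± 0.19 (SD, n = 4), a log2 change of 1.05 (SE 0.11) or 2.07-fold, with a 95% interval of 1.74 to 2.47-fold. Lox passed the test over all genes in limma (Benjamini-Hochberg adjusted p = 0.00519). It was 1 of 4 members called, where 0.712% of all genes were called, 0.527% in the upward direction, and the groups did not overlap in 8.73% of all genes, with 4.64% higher in every reverted array. Among the 105 genes called up, Lox ranked 15 by size of the rise. Its probe set was dim in quiescent cells, at percentile 23.5 of gene levels, and stood at percentile 42.9 in reverted cells. On the compressed lower part of an array's scale a change may be understated. How much of the dim quiescent signal is background was not tested.

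**Figure D1:**
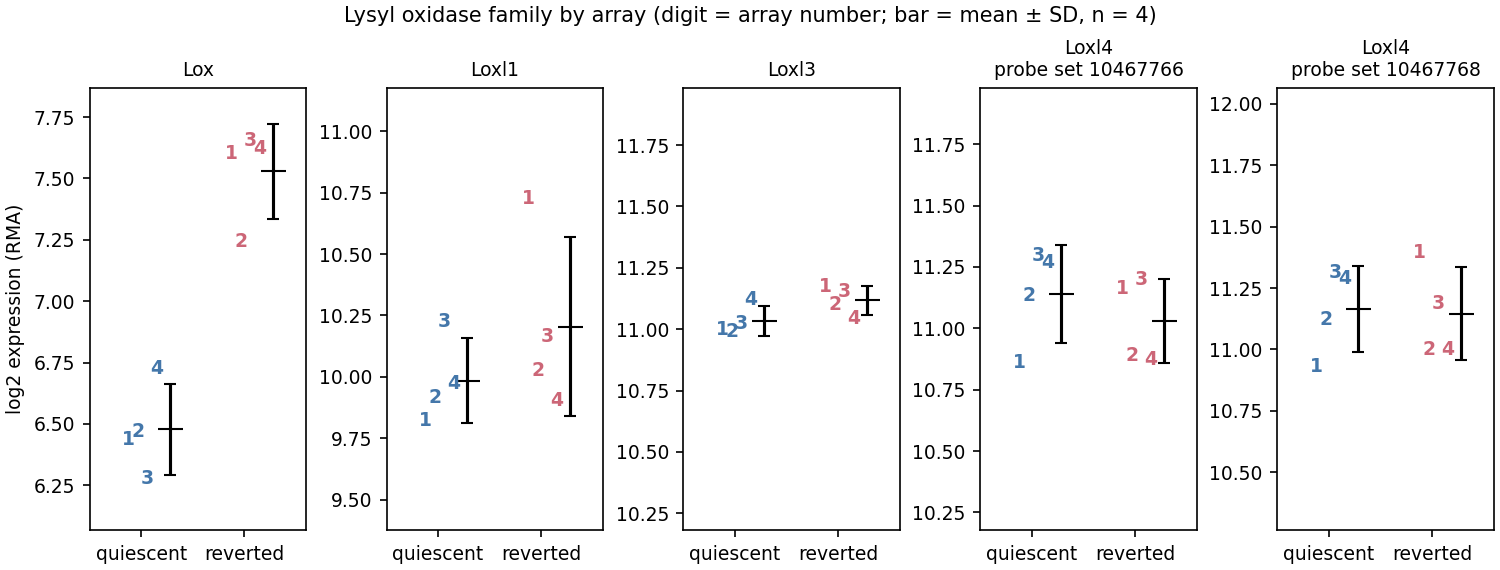
Log2 expression of each lysyl oxidase probe set (5 panels, vertical axes of equal span) in the 4 quiescent and 4 reverted arrays, each drawn as its array number, with the mean ± SD beside them. The Lox groups stand apart, from 6.28 to 6.73 and from 7.24 to 7.66, and the groups overlap in the other panels.

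The rise of Lox did not rest on a single array. With each of the 8 arrays left out in turn, its log2 change stayed between 0.99 and 1.15 and its limma adjusted p between 0.00424 and 0.0284. Without both quiescent array 3 and reverted array 1, the change was 0.96 (SE 0.13, adjusted p = 0.0405).

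Markers of other liver cells were compared between the groups beside Lox. Over all 19938 genes, 9253 had a higher mean in the reverted group and 16% had an unadjusted p under 0.05 in limma. Of 16 hepatocyte markers 15 were higher on average in the reverted group (median log2 change 0.37), and 7 of the 16 stood at an unadjusted p under 0.05 in limma. Their mean level was 8.29 to 9.13 in quiescent and 8.82 to 9.30 in reverted arrays. The transferrin gene Trf was the exception and fell (log2 change -0.27, adjusted p = 0.04). With the hepatocyte mean as a covariate, Lox had a change of 1.08 (SE 0.15, adjusted p = 0.0342). Of 10 endothelial markers 9 had a higher mean and 0 were called in limma (2 at an unadjusted p under 0.05), with means of 8.05 to 8.45 and 8.23 to 8.83, and their part in the result was not tested. Portal fibroblasts and mesothelium are further mesenchymal cells of the liver. The mean of 10 portal fibroblast markers was 8.18 to 8.23 in quiescent and 8.25 to 8.47 in reverted arrays, but 3 of the 10 were higher, and 6 of the 10 had an unadjusted p under 0.05, 2 up and 4 down. Dpt, which encodes the matrix protein dermatopontin, rose (log2 change 1.69, limma adjusted p = 0.0174), and without it the ranges were 8.05 to 8.15 and 8.002 to 8.16. The mean of 7 mesothelial markers was 6.69 to 6.78 and 6.81 to 6.96, with 1 of the 7 higher, the transcription factor gene Wt1, which rose (log2 change 1.39, limma adjusted p = 0.00801), and without it 6.41 to 6.54 and 6.37 to 6.44. With the joint mean of both lists as a covariate the change of Lox was 0.95 (SE 0.18, adjusted p = 0.157), in a limma fit that called 0 of the 19938 genes (2851 at an unadjusted p under 0.05, against 3181 without the covariate). Both list means lay higher in every reverted than in every quiescent array. The joint mean thus runs with the group, and the 2 cannot be told apart well in that fit. With the joint mean taken without Dpt and Wt1 the change of Lox was 1.03 (SE 0.14, adjusted p = 0.0446). Macrophage markers were higher in 3 of 10, smooth muscle markers in 3 of 6, lymphocyte markers in 2 of 4 and cholangiocyte markers in 0 of 5. Of these 4 lists 0 genes were called in limma, and 1, 3, 0 and 0 had an unadjusted p under 0.05. The 3 smooth muscle markers were 2 up and 1 down. The mean of the 6 was 7.75 to 8.08 in quiescent and 7.96 to 8.23 in reverted arrays. The part of smooth muscle markers in the result was not tested. Immediate early genes, which respond within minutes to handling, were higher in 6 of 9 with 0 at an unadjusted p under 0.05, with means of 12.84 to 13.03 and 12.93 to 13.04, and with their mean as a covariate Lox changed by 0.98 (adjusted p = 0.00494). No marker can be listed at 0 on this scale. A larger share of cells that carry Lox mRNA and more Lox mRNA per cell cannot be told apart in sorted bulk samples.

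**Figure D2:**
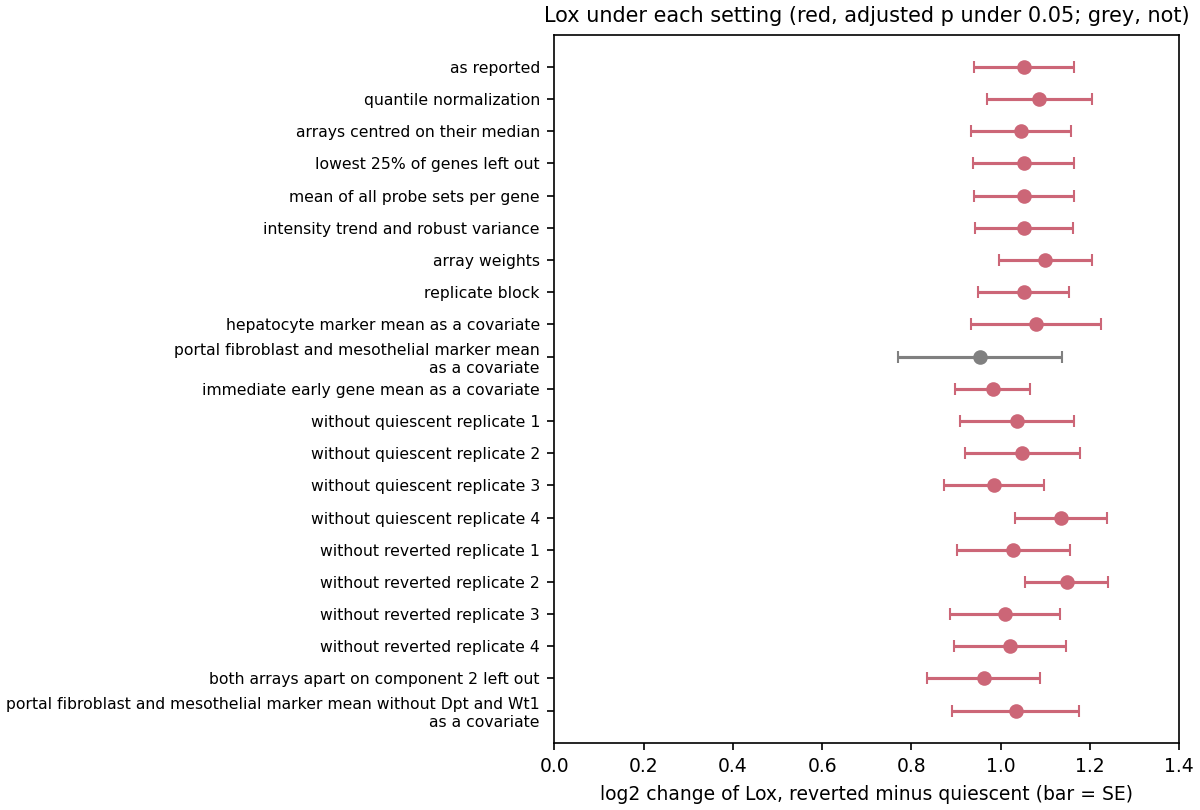
Log2 change of Lox (horizontal axis, reverted minus quiescent, bars give the SE) as reported and under each alternative. All points lie between 0.95 and 1.15, and the adjusted p was above 0.05 with the joint portal fibroblast and mesothelial marker mean as a covariate.

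Loxl1, the member best known for the maintenance of elastic fibres, was not called. It stood at 9.82, 9.91, 10.22 and 9.97 in quiescent arrays 1 to 4 and at 10.73, 10.03, 10.16 and 9.90 in reverted arrays 1 to 4. Reverted array 1 was the highest of all 8, and the other reverted arrays lay within the range of the quiescent ones. The log2 change was 0.22 (SE 0.16, limma adjusted p = 0.52), and the 95% interval ran from 0.90 to 1.51-fold. Without reverted array 1 the change was 0.05 (SE 0.10, adjusted p = 0.828). The arrays at the upper end of each group, quiescent 3 and reverted 1, were the pair that stood apart on the second principal component, and the part of that component in Loxl1 was not tested. With the joint portal fibroblast and mesothelial mean as a covariate the log2 change was -0.26 (adjusted p = 0.521). With that mean taken without Dpt and Wt1 it was 0.39 (SE 0.18, adjusted p = 0.566).

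Loxl3, a scavenger receptor domain member needed for the closure of the palate in mouse embryos, varied least. Its quiescent arrays read 11.00, 10.99, 11.02 and 11.12 and its reverted arrays 11.17, 11.10, 11.15 and 11.04. The ranges overlapped, with quiescent array 4 above reverted arrays 2 and 4. The log2 change was 0.08 (SE 0.05, limma adjusted p = 0.394). Its 95% interval, 0.99 to 1.14-fold, left out a change as large as that of Lox.

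Loxl4, the member with 2 probe sets, was not called on either. On the probe set with the higher mean, 10467768, quiescent arrays 1 to 4 stood at 10.93, 11.12, 11.31 and 11.29 and reverted arrays at 11.40, 11.00, 11.19 and 11.00. The lowest and the highest array came from different groups and the ranges overlapped over most of their width. The log2 change was -0.02 (SE 0.11, limma adjusted p = 0.945), with a 95% interval of 0.83 to 1.17-fold. The other probe set, 10467766, ran from 10.86 to 11.30 in quiescent and from 10.87 to 11.20 in reverted arrays, with a change of -0.11 (SE 0.11, adjusted p = 0.635 over 21789 probe sets, of which 0.665% were called). The sign of so small a change turned when quiescent array 3 or 4 or reverted array 2 or 4 was left out, with values between 0.02 and 0.03.

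**Figure D3:**
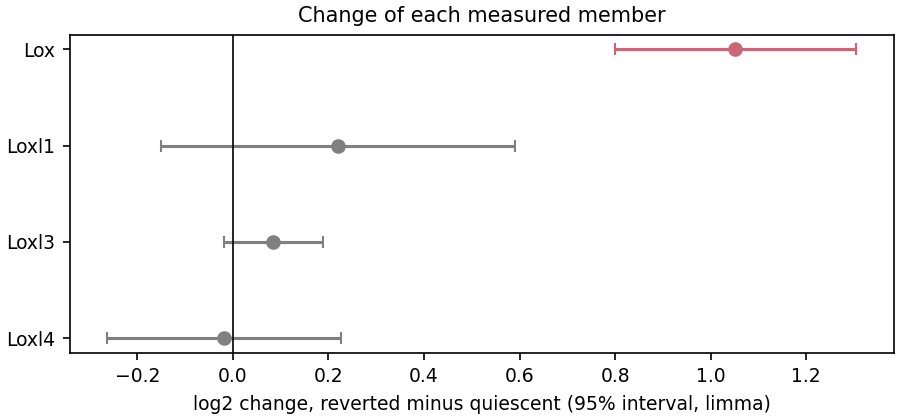
Log2 change (reverted minus quiescent) of the 4 measured members, with 95% intervals from limma on 4 arrays per group. The interval of Lox, 0.80 to 1.30, lies to the right of those of Loxl1 (-0.15 to 0.59), Loxl3 (-0.02 to 0.19) and Loxl4 (-0.26 to 0.23).

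The change of Lox was set against that of each other measured member within arrays. The difference between the log2 change of Lox and that of Loxl1 was 0.83, against Loxl3 it was 0.97 and against Loxl4 1.07. For each of these 3 pairs, the within-array difference was larger in every reverted than in every quiescent array. The groups did not overlap for Lox itself, whose rise enters each difference. The separation is thus no separate result about Loxl1, Loxl3 or Loxl4. The share of all genes that separate from Lox in this way was not counted. An exact 2-sided permutation test over the 70 splits of the 8 arrays gave p = 0.0286, the smallest p that 4 against 4 arrays allow, and p = 0.0571 after Benjamini-Hochberg adjustment over the 6 member pairs, which did not pass. In a limma fit of every gene minus Lox, the 3 members had the same SE of 0.16. The adjusted p of that fit was 8.69e-08 for Loxl1, 5.58e-10 for Loxl3 and 1.15e-11 for Loxl4. That fit called 99.8% of all genes, since the error and the rise of Lox enter every row. Its SE is pooled over genes that share this error, so its p-values are too small. They cannot be read as a result about the 3 members. Among the other pairs, Loxl1 against Loxl4 differed by 0.24 (exact permutation p = 0.0571, adjusted p = 0.0857), Loxl1 against Loxl3 by 0.14 (adjusted p = 0.514) and Loxl3 against Loxl4 by 0.10 (adjusted p = 0.446).

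The arrays did not order the members alike. Within the quiescent group, Lox was lowest on array 3 (0.20 below its group mean), where Loxl1 and Loxl4 were at their highest (0.24 and 0.15 above). Loxl1 and Loxl4 were both lowest on quiescent array 1 and both highest on reverted array 1 (0.52 and 0.25 above their group means). Lox was highest on quiescent array 4 and lowest on reverted array 2, 0.29 below its group mean.

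The genes with the profile nearest to that of Lox were sought over the 8 arrays, after each gene was centred on its own mean, by the root mean square difference in log2 units. Predicted and unnamed genes, with symbols that start with Gm and digits or end in Rik, were left out of the search. The nearest was Serpini1, which encodes the protease inhibitor neuroserpin, at 0.14, with a log2 change of 0.91. Next came Ano4 (0.15), a gene of the anoctamin family of membrane proteins, the fatty acid elongase gene Elovl6 (0.17), the unconventional myosin gene Myo1d (0.17) and the tetraspanin-like membrane protein gene Tm4sf1 (0.18). Their log2 changes lay between 0.87 (Tm4sf1) and 1.06 (Myo1d). Serpini1, Elovl6 and Tm4sf1 shared with Lox the lowest reverted value on array 2, whereas Ano4 and Myo1d did not. All 5 stood higher in every reverted than in every quiescent array and were called in the limma fit over all genes (adjusted p from 0.00171 to 0.0251), which a search for likeness to Lox makes likely, so that these calls are no support for the rise of Lox.

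**Figure D4:**
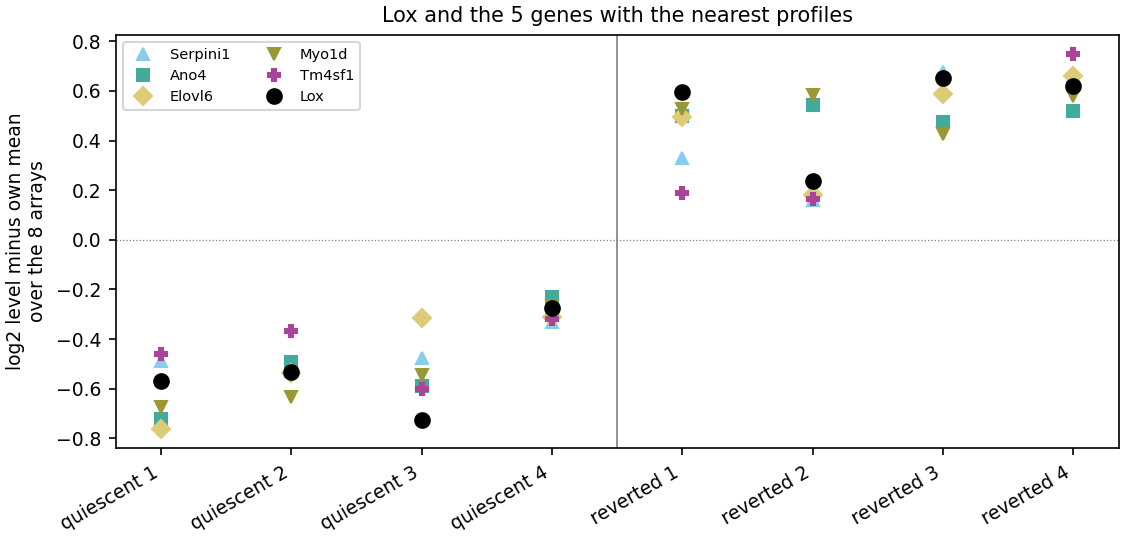
Log2 level minus the gene's own mean over the 8 arrays (vertical axis) for Lox and 5 other genes, array by array. These 5 had the smallest root mean square difference from Lox, with predicted and unnamed genes left out. Lox runs from -0.72 on quiescent array 3 to 0.65 on reverted array 3, and on reverted array 2 Lox, Serpini1, Elovl6 and Tm4sf1 sit below Ano4 and Myo1d.

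Genes that lysyl oxidases work with were examined by role, in 7 lists that together hold 78 measured genes. Of these 1 rose and 0 fell in limma, against 0.527% and 0.186% of all genes. The 2 groups of arrays did not overlap in 16 of the 78, with 13 above and 3 below, while 4.64% of all genes lay above and 4.09% below. At an unadjusted p under 0.05 there were 27 of the 78, against 16% of all genes. The lists were chosen with earlier results of these data known. These counts, and those by list below, are thus no result about the lists. The median log2 change over all genes was -0.01.

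The gene that rose belongs to the list of proenzyme activation and scaffold. Thbs1 encodes thrombospondin 1, a matricellular protein that binds lysyl oxidase precursors and activates latent TGF-beta. It stood at 12.51, 12.50, 11.97 and 12.57 in quiescent and at 13.32, 13.43, 13.30 and 13.52 in reverted arrays. All reverted arrays lay above all quiescent ones, and quiescent array 3 was the lowest. The log2 change was 1.00 (SE 0.12), or 2.01-fold (limma adjusted p = 0.00947), and 0.87 without quiescent array 3. With the joint portal fibroblast and mesothelial mean as a covariate the log2 change was 1.11 (SE 0.20, adjusted p = 0.157), and with that mean taken without Dpt and Wt1 it was 0.93 (SE 0.15, adjusted p = 0.0652).

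The other 9 genes of that list were not called. Fn1, the fibronectin scaffold on which the Lox precursor is cleaved, read 13.69, 13.63, 13.54 and 13.57 in quiescent and 13.80, 13.95, 13.85 and 13.81 in reverted arrays. Its groups did not overlap, but the log2 change of 0.25 had an adjusted p of 0.0632. It passed with quantile normalization (0.0247), with an intensity trend and robust variance together (0.0229) and with array weights (0.0498). Bmp1, whose protease removes the Lox propeptide, had a change of 0.02 (adjusted p = 0.787), and its relatives Tll1 and Tll2 had changes of -0.05 and -0.04. The procollagen C-proteinase enhancer gene Pcolce (0.12, adjusted p = 0.323) and the matricellular gene Postn (-0.11, adjusted p = 0.397) overlapped between groups. The list's median was 0.04.

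Among 11 collagen substrate genes limma called 0 (6 at an unadjusted p under 0.05), with 5 higher and 6 lower means and a median log2 change of -0.03. The chains of collagen IV, the network collagen of basement membranes, had the smallest p. Col4a2 went from 11.38 ± 0.08 to 11.68 ± 0.11 (SD, n = 4), a log2 change of 0.30 (adjusted p = 0.0792), and Col4a1 from 11.73 ± 0.04 to 11.97 ± 0.09 (0.23, adjusted p = 0.0908). Neither passed, although all reverted arrays were above all quiescent ones, and without reverted array 1 both did (adjusted p = 0.0396 and 0.0327). The collagen V chains differed in sign, with Col5a2 at 0.22 (adjusted p = 0.14) and Col5a1 at -0.14 (adjusted p = 0.194), neither of them called. The fibrillar collagen gene Col1a1 had the largest change of the list (0.32, adjusted p = 0.239), with groups that overlapped. Col1a2 was at 0.10 (adjusted p = 0.447) and Col3a1 at -0.03 (adjusted p = 0.806).

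The elastic fibre list, which holds the elastin substrate and the proteins that place it, had 0 of 12 genes called in limma (6 at an unadjusted p under 0.05), 5 with a higher and 7 with a lower mean, and a median of -0.05. Eln, which encodes tropoelastin, stood at 10.38, 10.56, 10.31 and 10.41 in quiescent and at 10.31, 10.04, 9.96 and 9.96 in reverted arrays. Reverted array 1 reached the quiescent range and the others lay below it. The log2 change was -0.34 (SE 0.08, adjusted p = 0.118), opposite in sign to that of Lox, and it passed without reverted array 1 (-0.42, adjusted p = 0.0386). Efemp1, which encodes fibulin 3, lay lower in every reverted array (-0.16, adjusted p = 0.117). Emilin1, an elastin-associated glycoprotein gene (0.15, adjusted p = 0.119), and the fibulin gene Fbln1 (0.20, adjusted p = 0.199) lay higher in every one. None of these passed. Eln is also on the portal fibroblast list.

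Lysyl oxidases need copper, which the transporter Slc31a1 takes up and chaperones and pumps hand on to the secretory pathway. Of 11 copper supply genes 11 had a higher mean in reverted cells and 0 were called in limma (4 at an unadjusted p under 0.05), with a median log2 change of 0.10, where 9253 of the 19938 genes had a higher mean. The changes were small, from 0.02 to 0.23. The smallest p were those of the copper chaperone for superoxide dismutase Ccs (0.23, adjusted p = 0.226), Slc31a1 (0.16, adjusted p = 0.263) and the metallothioneins Mt2 (0.17, adjusted p = 0.28) and Mt1 (0.10, adjusted p = 0.307). In each of the 11 the groups overlapped. Atp7a, the pump that loads copper onto secreted cuproenzymes, was at 0.06 (adjusted p = 0.707).

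Other enzymes that prepare or make cross-links had 0 of 10 genes called in limma (2 at an unadjusted p under 0.05) and a median of 0.04. The lysyl hydroxylases Plod1, Plod2 and Plod3, which set the chemistry of collagen cross-links, had log2 changes of -0.05, 0.09 and 0.06, with adjusted p between 0.476 and 0.621. The prolyl hydroxylase subunit gene P4ha3 (0.17, adjusted p = 0.154) and the collagen galactosyltransferase gene Colgalt1 (0.09, adjusted p = 0.298) were higher in every reverted array without passing. Transglutaminase 2, which links proteins through glutamine, had a change of 0.09 for its gene Tgm2 (adjusted p = 0.512). Among 5 other amine oxidases limma called 0 (1 at an unadjusted p under 0.05), and the mitochondrial monoamine oxidase gene Maoa had the smallest p (0.29, adjusted p = 0.0981), with all reverted arrays above all quiescent ones. Aoc2 (0.10, adjusted p = 0.417), Maob (-0.05, adjusted p = 0.556) and Aoc3 (0.05, adjusted p = 0.655) overlapped between groups.

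Of 19 measured regulators that are known to act on lysyl oxidase genes or to accompany them, limma called 0 (6 at an unadjusted p under 0.05), with a median of 0.01. Tgfb2, which encodes a ligand of the TGF-beta pathway, the classical inducer of Lox, had the smallest p. It stood at 8.43, 7.70, 7.79 and 8.26 in quiescent and at 8.62, 8.57, 8.70 and 9.11 in reverted arrays, a log2 change of 0.70 (SE 0.18, adjusted p = 0.123), with groups that did not overlap. Tgfb3 had a change of 0.44 (adjusted p = 0.133) and the receptor gene Tgfbr1 of 0.30 (adjusted p = 0.153), while Tgfb1 was at -0.02 (adjusted p = 0.902). Among other genes of that pathway, the inhibitor gene Smad7 was at -0.24 (adjusted p = 0.284) and the receptor gene Tgfbr2 at -0.07. Smad2 was at 0.09, Smad3 at 0.05 and Smad4 at 0.01. The regulator gene Mrtfa (0.16, adjusted p = 0.197) was higher in every reverted array, and Wwtr1 was at 0.15 (adjusted p = 0.357). Of the 19 regulators, 10 had a higher and 9 a lower mean. Ccn2, which encodes connective tissue growth factor, a TGF-beta and YAP target, read 13.09, 12.88, 12.39 and 13.57 in quiescent and 13.58, 13.57, 13.54 and 13.78 in reverted arrays (0.64, adjusted p = 0.195). Quiescent array 4 reached the reverted range, and without it Ccn2 passed (0.83, adjusted p = 0.0459). The hypoxia factor genes Hif1a (-0.04) and Epas1 (-0.09) and the transcription factor genes Snai1 (-0.01) and Twist1 (-0.09) had adjusted p between 0.412 and 0.947.

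**Figure D5:**
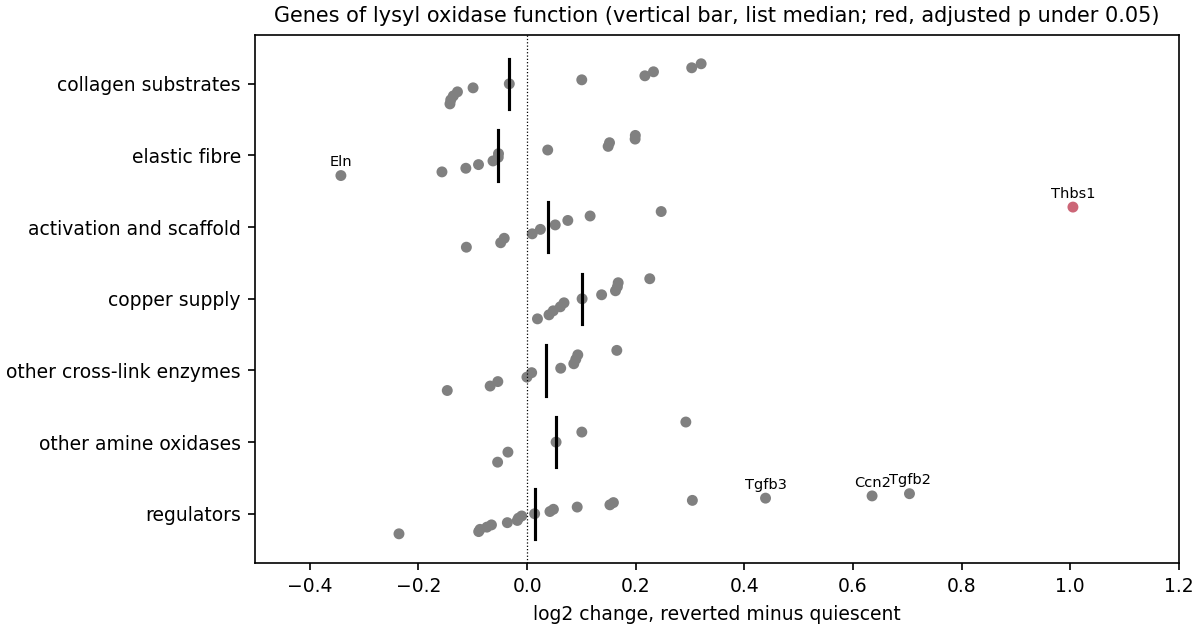
Log2 change (horizontal axis, reverted minus quiescent) of the 78 measured genes in 7 lists, 1 point per gene, with the list median as a vertical bar. Thbs1 at 1.00 is the gene with an adjusted p under 0.05, Tgfb2, Ccn2 and Tgfb3 follow without passing, and Eln lies farthest to the left at -0.34.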

How the data were processed

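The deposited values are log2 expression values per probe set, made by the authors with RMA, per the submitters' processing notes. RMA corrects background, normalizes across arrays and summarises probes. Version and genome build are not given in the sources used here. Per the labels' protocols, 150 ng of RNA was amplified and biotin-labelled for a whole-transcript array. Of 35556 probe sets, 21789 carry 1 gene symbol, 1621 several and 12146 none, from the platform's annotation. Entrez identifiers of 21698 were found in the RefSeq table of GRCm38.p6, used for names only. For the comparison of the groups, limma 3.58.1 (lmFit, eBayes; R 4.3.3) was used 2-sided, with neither covariates nor a filter, with Benjamini-Hochberg adjustment over 19938 genes and calls at an adjusted p under 0.05. The members of each list named are all called genes and the 4 with the smallest p. Others were chosen for their role or their change after their values were seen (Bmp1, Tll1, Tll2, Col1a1, Col1a2, Col3a1, Atp7a, Plod1, Plod2, Tgfb1, Tgfbr2, Smad2, Smad3, Smad4, Smad7, Mrtfa, Wwtr1, Hif1a, Epas1, Snai1 and Twist1). The members and lists were chosen with earlier results of these data known. The number of arrays limits the precision. Same-numbered arrays did not deviate together (correlations from -0.15 to 0.08). The fit was also run on simulated data with independent noise for each gene. Such data lack the structure that genes share across these arrays, so the run cannot vouch for the calls reported here. Alternatives covered normalization, centring, filters on dim genes, probe set choice, variance model, array weights, a replicate block, marker means as covariates and leaving out arrays. Plots used Python 3.11.15, pandas 2.3.3 and matplotlib 3.10.9. Listed genes without a probe set of a single symbol, such as Fbn1, Efemp2, Adamts2 and Fkbp10, are not analysed here.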

Additional observations from a re-analysis of the deposited data

Results flagged for a closer look

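An array was marked where its gap to the nearest other array of its group divided by the group's range exceeded Dixon's 95% critical value for 4 samples. This was checked in 64 groups (32 genes in each condition), and chance alone marks about 1 in 20, so that the 5 arrays found carry little weight as a pattern. Lox on reverted array 2 stood at 7.24, below the other reverted arrays at 7.60 to 7.66 and above all quiescent arrays. Thbs1 on quiescent array 3 was at 11.97, below the others of its group at 12.50 to 12.57. Col4a1 on reverted array 1 was at 11.83 against 12.01 to 12.02, and Aoc2, an amine oxidase gene, on the same array was at 8.45 against 8.63 to 8.64. Ccn2 on reverted array 4 was at 13.78, above the others at 13.54 to 13.58.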

How the results depend on the processing

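The call of Lox held in 19 of 20 alternatives that could be fitted, with log2 changes from 0.95 to 1.15, and the exception was the joint portal fibroblast and mesothelial mean as a covariate (0.95, adjusted p = 0.157), which brought the members called to 0. Leaving out the lower 50% of genes by level removed Lox itself, which also left 0 members called. Members called numbered 1 up and 0 down without each single array. With the replicate block, Lox kept its call (1.05, SE 0.10, adjusted p = 0.0235), while 63 genes were called in all against 142. The calls over all genes also came to 219 with quantile normalization, 306 with array weights, 75 and 93 with the hepatocyte and immediate early covariates, 56 without both arrays apart on the second component, 48 with the joint mean without Dpt and Wt1, and 54 to 247 with 1 array left out. The cause of these shifts was not tested. Loxl1 turned to -0.26 with the joint marker mean and stood at 0.39 with that mean without Dpt and Wt1. Loxl4 was at -0.26 with the joint marker mean. Loxl4 turned to 0.00052 with the immediate early mean and to 0.013 with the joint mean without Dpt and Wt1, and ran from -0.10 to 0.030 with 1 array left out. Its direction is not determined. The collagen substrates had 1 up call with an intensity trend and robust variance (Col4a2) and 2 with array weights (Col4a1 and Col4a2), and 0 to 2 with 1 array left out. The elastic fibre list had 1 down call with that same setting (Efemp1) and 1 without both arrays apart (Eln, -0.46), and 0 to 1 with 1 array left out. The amine oxidases had 1 up call with array weights (Maoa). The activation list had 2 up calls (Thbs1 and Fn1) with quantile normalization, an intensity trend and robust variance, or array weights, and 0 with either form of the joint mean, where the log2 change of Thbs1 was 1.11 and 0.93 against 1.00 as reported. The regulators had 0 to 1 up calls with 1 array left out. Leaving out both arrays and leaving Dpt and Wt1 out of the joint mean were chosen after seeing the data. Array background levels were not used, which limits what can be said of dim probe sets such as that of Lox.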
